A study of Homo sapiens with 4 samples.

Results

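The genes described here encode the machinery that opens, copies and closes the DNA double helix at the replication fork, from the origin recognition complex through the GINS complex, the replicative polymerases and the sliding clamp to the factors that join the new strands and pack them with histones. They were 45 genes taken from a list of names that was chosen with earlier results of these data known. In a table of 40205 gene symbols, 44 of them had a row. The RNA of PRIM2, the large subunit of primase, was not analysed here, while its 2 promoter windows were counted with those of the other genes. All 44 passed the filter on low counts. KIAA0101 is the older symbol of PCLAF, the PCNA-associated factor.

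RNA-seq counts came from 4 libraries of A549, an established line grown from a human lung adenocarcinoma, taken 24 h after small interfering RNAs (siRNAs) were introduced. Knockdown-670 and Knockdown-732 received siRNA against the long non-coding RNA SBF2-AS1, and NC-1 and NC-2 (control 1 and control 2 in the plots) a negative control siRNA; what the numbers of the knockdown libraries stand for is not stated. No label says whether cultures were separate within a group, and p-values here measure the spread among these libraries alone, which may be technical. The 4 libraries held 12149767 to 12938143 counts. SBF2-AS1 had 15 and 18 counts in Knockdown-670 and Knockdown-732, against 57 and 79 in NC-1 and NC-2, with a log2 fold change of -1.94 (standard error 0.30, adjusted p = 3.19e-05 in edgeR). The 8 epithelial and A549 markers summed to 7308 and 7348 CPM (counts scaled to a common library total after TMM, edgeR's correction for library composition) in the knockdown libraries and to 13643 and 12971 CPM in the controls, with 6 lower, 1 higher and 1 that did not pass; their part in the results was not tested. Among markers of fibroblasts, immune cells and endothelial cells, CD3E and HLA-DRA were at 0 in all 4 libraries. The 3 lists summed to between 0.425 and 17.9 CPM each in any library. Not all were near 0: COL1A1 had 11.5 and 8.90 CPM in the knockdown libraries and 8.20 and 8.01 CPM in the controls. CD14 had 8.66 and 9.61 CPM against 12.06 and 9.90 CPM, and ITGAM 6.11 and 5.20 CPM against 5.88 and 4.69 CPM. None of COL1A1, CD14 and ITGAM passed.

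Replication begins where the origin recognition complex loads the MCM ring onto DNA. In S phase the kinase CDC7 with its activator DBF4 triggers the joining of CDC45 and GINS, which turns the ring into the active CMG helicase. Polymerase alpha-primase then lays down short primers, polymerase epsilon copies mainly the leading strand and polymerase delta mainly the lagging strand, both tethered by the PCNA clamp that the RFC complex loads, while RPA coats the exposed single strands. Many of these genes are known E2F targets, transcribed in late G1 and S phase.

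Replication fork genes were lower after SBF2-AS1 siRNA almost throughout. Of the 44 genes, 42 were lower and 0 higher by edgeR (Benjamini-Hochberg adjusted p under 0.05), where 46.3% of all 16120 genes tested changed, 22.8% lower and 23.5% higher. At an unadjusted p under 0.05 the number higher was also 0, as it was in DESeq2 and in limma-voom. A called fall of at least 2-fold was seen for 27 of the 44, against 4.63% of all genes tested. In 42 genes both knockdown libraries lay below both controls, an order found in 36.2% of all genes tested. The median log2 fold change was -1.19, which is 0.439 of the control level, beside -0.0024 over all genes tested. The exceptions were POLD2 and POLD4, both accessory subunits of polymerase delta. In bulk RNA, fewer cells in S phase and less of each RNA per cell cannot be told apart.

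**Figure D1:**
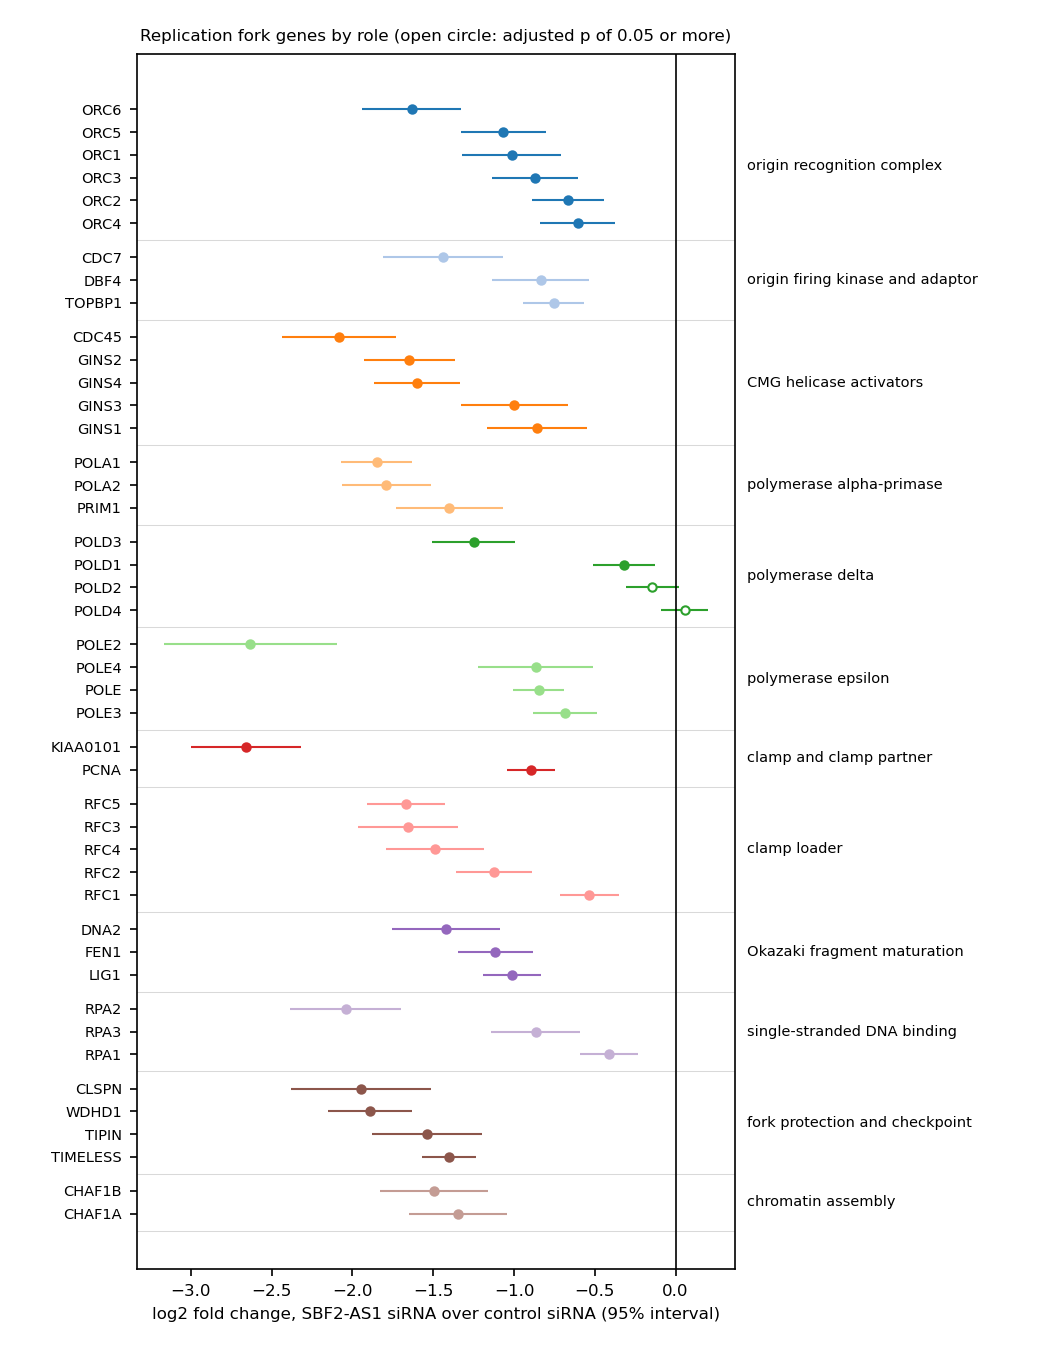
The log2 fold change (x axis, SBF2-AS1 siRNA over control siRNA) of each of the 44 genes is drawn with its 95% interval and grouped by role. Filled circles passed an adjusted p of 0.05, open circles did not, and only POLD2 and POLD4 are open.

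The summed level of the 44 genes was 1322 CPM in Knockdown-670 and 1353 CPM in Knockdown-732, against 2373 CPM in NC-1 and 2248 CPM in NC-2, a mean change of -42.1%. POLD2 and POLD4 together made up 33.2% and 32.2% of that sum in the knockdown libraries, against 19.7% and 18.8% in the controls. Relative to the mean of the controls, the median of the 44 genes was -1.20 on the log2 scale in Knockdown-670 and -1.20 in Knockdown-732, and lay 0.03 above and below zero in the controls. Single genes differed more between the knockdown libraries than that median: 30 of the 44 were lower in Knockdown-670 than in Knockdown-732, or 68.2%, beside 50.4% of all genes tested. Among all 16120 genes ranked by fold change, 8 of the 44 lay in the lowest 1%, 27 in the lowest 5% and 36 in the lowest 10%.

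**Figure D2:**
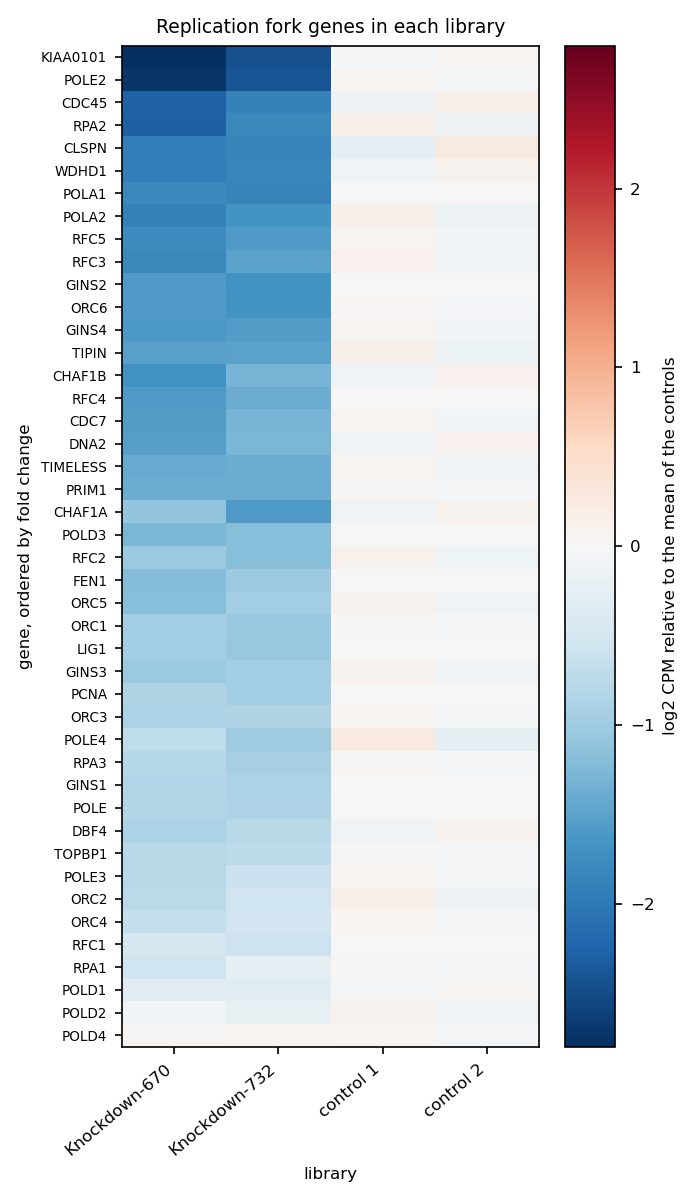
Each row is 1 of the 44 genes and each column 1 library; colour gives log2 CPM relative to the mean of the controls, blue for lower. Both knockdown columns are blue down to POLD1, with medians of -1.20 in each, while the control columns stay near 0.

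The promoter sequences of genes toward both ends of this range, and of PCNA, are shown because E2F binding is the textbook link between these genes. RefSeq windows (GRCh38.p14, 250 bases before to 50 after a start) were held for 40 of the 45 genes, 52 windows in all, and not for GINS4, POLD3, DNA2, RPA2 and RPA3. An E2F-type motif, TTTNNCGC with each N a C or a G, was searched on both strands. It was found in 17 of the 52 windows (32.7%), against 3.31% of all 35116 windows and 4.797% of the 14905 windows of genes tested. The windows of PRIM2 were counted among those of genes tested. That set holds windows whose RefSeq symbol equals the symbol of a tested gene. Tested genes under an older symbol are therefore missing from it, while for the members an older symbol such as KIAA0101 was resolved. Below are the windows of KIAA0101 (chr15:64381392-64381691, minus strand), POLE2 (chr14:49688165-49688464, minus strand), POLA1 (chrX:24693668-24693967, plus strand), PCNA (chr20:5126573-5126872, minus strand), POLD2 (chr7:44123499-44123798, minus strand) and POLD4 (chr11:67353547-67353846, minus strand), each read 5′ to 3′ along its gene, with E2F-type matches in capitals. KIAA0101, PCNA and POLD4 have 2 windows each; for KIAA0101 and PCNA the one with a match is given, and neither window of POLD4 holds one.
KIAA0101: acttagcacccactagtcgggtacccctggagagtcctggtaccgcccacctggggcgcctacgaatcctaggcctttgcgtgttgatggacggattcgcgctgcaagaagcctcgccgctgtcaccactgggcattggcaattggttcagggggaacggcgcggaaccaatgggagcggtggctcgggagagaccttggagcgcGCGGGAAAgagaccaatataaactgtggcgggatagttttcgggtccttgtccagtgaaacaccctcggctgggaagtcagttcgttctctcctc
POLE2: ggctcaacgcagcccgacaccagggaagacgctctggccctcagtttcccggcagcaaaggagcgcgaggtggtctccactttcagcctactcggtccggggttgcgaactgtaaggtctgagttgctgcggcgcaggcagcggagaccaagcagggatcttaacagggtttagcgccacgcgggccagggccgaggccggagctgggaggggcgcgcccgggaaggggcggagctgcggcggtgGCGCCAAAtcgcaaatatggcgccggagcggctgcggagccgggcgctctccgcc
POLA1: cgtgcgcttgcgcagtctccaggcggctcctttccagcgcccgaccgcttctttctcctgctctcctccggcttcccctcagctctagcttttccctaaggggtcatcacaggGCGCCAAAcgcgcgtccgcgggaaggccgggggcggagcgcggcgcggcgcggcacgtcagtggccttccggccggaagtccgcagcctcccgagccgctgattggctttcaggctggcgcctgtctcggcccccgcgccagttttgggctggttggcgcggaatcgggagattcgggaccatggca
PCNA: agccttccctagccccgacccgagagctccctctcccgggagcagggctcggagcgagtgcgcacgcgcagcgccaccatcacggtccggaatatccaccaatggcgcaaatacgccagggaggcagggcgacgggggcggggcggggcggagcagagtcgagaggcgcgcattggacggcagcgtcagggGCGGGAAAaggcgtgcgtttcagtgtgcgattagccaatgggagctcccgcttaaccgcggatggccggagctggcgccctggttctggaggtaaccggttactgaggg
POLD2: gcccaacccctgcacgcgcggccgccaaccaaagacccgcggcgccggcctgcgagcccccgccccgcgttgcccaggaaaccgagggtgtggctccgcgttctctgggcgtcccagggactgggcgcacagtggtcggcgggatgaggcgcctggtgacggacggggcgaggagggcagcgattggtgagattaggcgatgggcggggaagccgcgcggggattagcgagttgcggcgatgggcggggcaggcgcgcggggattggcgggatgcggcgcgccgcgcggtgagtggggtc
POLD4: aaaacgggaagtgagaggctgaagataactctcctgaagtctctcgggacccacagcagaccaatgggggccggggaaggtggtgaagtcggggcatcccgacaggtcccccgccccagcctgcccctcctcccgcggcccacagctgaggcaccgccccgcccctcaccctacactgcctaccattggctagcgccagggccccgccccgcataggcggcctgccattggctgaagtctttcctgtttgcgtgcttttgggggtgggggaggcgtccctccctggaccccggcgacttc

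In KIAA0101, POLE2, POLA1 and PCNA the match reads as the reverse complement of the motif and begins 45, 5, 137 and 59 bases before the start in that order. The POLD2 and POLD4 windows hold none of these letters on either strand, which says nothing about binding by the factor. The 17 genes with a match in a window had log2 fold changes from -2.66 to -0.76 (median -1.44), and the 22 measured genes whose windows lacked one had values from -2.08 to 0.06 (median -1.09). Those without a match included CDC45 at -2.08, WDHD1 at -1.89, RFC5 at -1.67 and ORC6 at -1.63, whose windows are not printed above. The printed genes did not follow rank alone. CDC45 and WDHD1, without a match, and CLSPN, with a match, had lower fold changes than POLA1 and were left out. A CCAAT box was found in 48.1% of the members' windows, 34.2% of the windows of genes tested and 34.6% of all windows. The GC box GGGCGG was in 78.8% of the members' windows, 65.2% of the windows of genes tested and 44.95% of all windows. The motifs TTTGAA or TTTAAA, known as the cell cycle homology region of mitotic genes, were in 7.69% of the members' windows, 17.1% of the windows of genes tested and 24.0% of all windows. An E2F-type match and a CCAAT box stood in the same window in 17.3% of the members' windows, 1.89% of the windows of genes tested and 1.22% of all windows. All motifs were searched on both strands, and matches of different motifs may share bases and were counted for each.

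The origin recognition complex marks the sites where replication can start, and all 6 of its genes fell. ORC6, the smallest subunit, had 7.47 and 7.01 CPM in Knockdown-670 and Knockdown-732, against 23.1 and 21.8 CPM in NC-1 and NC-2. The groups did not overlap, and the log2 fold change of -1.63 (standard error 0.15, edgeR adjusted p = 4.29e-08) was the lowest of the complex. ORC4, an ATPase subunit, had 22.5 and 24.7 CPM in the knockdown libraries and 37.6 and 34.5 CPM in the controls, the smallest fall of the complex (log2 fold change -0.61, SE 0.11, edgeR adjusted p = 0.000210). Between them lay ORC1, the subunit that is lost from chromatin and remade each cycle in human cells, at -1.02, ORC5 at -1.07, ORC3 at -0.87 and ORC2 at -0.67. When fold changes were adjusted for transcript GC and length, ORC2, ORC3 and ORC4 fell less, at -0.44, -0.54 and -0.38, and still passed. Per kilobase of transcript, ORC6 stood at 60.9% and 49.9% of ORC2 in the knockdown libraries and at 101% and 115% in the controls.

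Origin firing genes fell as well. CDC7, the kinase, had 4.50 and 5.36 CPM in the knockdown libraries and 14.1 and 12.8 CPM in the controls, with counts of 53 and 68 against 182 and 169. Its log2 fold change was -1.44 (standard error 0.18, edgeR adjusted p = 2.33e-06), while DBF4, its activator, was at -0.83 (95% interval -1.14 to -0.53). TOPBP1, the scaffold that brings initiation factors together and activates the checkpoint kinase ATR, fell the least of these, with 34.6 and 36.2 CPM in the knockdown libraries and 61.3 and 58.4 CPM in the controls (log2 fold change -0.76, SE 0.09, edgeR adjusted p = 1.50e-06).

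The activators of the helicase fell unequally. CDC45, which completes the CMG helicase together with GINS and MCM, had 5.01 and 6.54 CPM in the knockdown libraries and 22.0 and 27.1 CPM in the controls. That is a log2 fold change of -2.08 (standard error 0.17, edgeR adjusted p = 1.19e-08), with no overlap between the groups. GINS is a complex of 4 different subunits. GINS2 and GINS4 were at -1.65 and -1.60, and GINS3 and GINS1 at -0.998 and -0.86. GINS1 had 8.92 and 8.59 CPM in the knockdown libraries, against 15.8 and 15.9 CPM in the controls (SE 0.15, edgeR adjusted p = 0.000104). Per kilobase, GINS2 stood at 128% and 124% of GINS1 in the knockdown libraries and at 216% and 220% in the controls.

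Polymerase alpha-primase, which starts every new strand, had all 3 measured genes lower. POLA1, the catalytic subunit, had 15.7 and 14.97 CPM in the knockdown libraries and 55.4 and 55.2 CPM in the controls, a log2 change of -1.85 (SE 0.11, edgeR adjusted p = 1.08e-10). POLA2, its regulatory partner, was close to it at -1.79 (95% interval -2.07 to -1.51). PRIM1, the subunit that makes the RNA primer, had 6.03 and 6.07 CPM in the knockdown libraries and 16.3 and 15.6 CPM in the controls (log2 fold change -1.40, SE 0.16, edgeR adjusted p = 8.41e-07). The gene sum was 33.5 and 34.9 CPM in the knockdown libraries and 121 and 111 CPM in the controls, a mean change of -70.5%, the largest relative drop of any role group here.

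The genes of polymerase delta, which copies mainly the lagging strand, moved unequally, with 2 of 4 lower. POLD3, a subunit that binds PCNA, had 13.5 and 14.3 CPM in the knockdown libraries and 33.6 and 32.6 CPM in the controls (log2 fold change -1.25, SE 0.12, edgeR adjusted p = 1.49e-07). POLD1, the catalytic subunit, had 38.1 and 38.6 CPM in the knockdown libraries and 46.6 and 49.0 CPM in the controls. It passed with a log2 fold change of -0.32 (95% interval -0.51 to -0.13, edgeR adjusted p = 0.00784), and only just in DESeq2 (DESeq2 adjusted p = 0.0498). It did not pass when tested against a fold change of 1.2 (edgeR glmTreat adjusted p = 0.249). POLD1 was at -0.70 once fold changes were adjusted for transcript GC and length. POLD2, which joins the subunits, had 169 and 155 CPM in the knockdown libraries and 192 and 166 CPM in the controls. These groups overlapped, and the log2 fold change of -0.14 (95% interval -0.31 to 0.02) did not pass (edgeR adjusted p = 0.147). POLD2 did pass with library size only (-0.21, edgeR adjusted p = 0.0358), after adjustment for transcript GC and length (-0.25, edgeR adjusted p = 0.0049) and without NC-2 (-0.25, edgeR adjusted p = 0.0149); without NC-1 it was -0.04. A processed copy of POLD2 held 205 counts over all libraries, 2.37% of the count of POLD2.

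POLD4, the smallest subunit, whose protein is known to be removed in S phase and after DNA damage, had 269 and 281 CPM in the knockdown libraries and 274 and 255 CPM in the controls. The groups overlapped, the log2 fold change was 0.06 (95% interval -0.09 to 0.20, edgeR adjusted p = 0.537), and its sign turned with library size only (-0.0074) and without NC-2 (-0.0014). Per kilobase of transcript, POLD3 stood at 32.6% and 34.2% of POLD1 in the knockdown libraries and at 66.4% and 61.3% in the controls. Which of these genes was higher in the controls depended on the length used. With coding sequence length in place of transcript length, the control means were 23.71 CPM per kilobase for POLD3 and 14.07 for POLD1. The sum of the delta genes, mostly POLD2 and POLD4, was 491 and 489 CPM in the knockdown libraries and 547 and 503 CPM in the controls, a mean change of -6.72%.

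**Figure D3:**
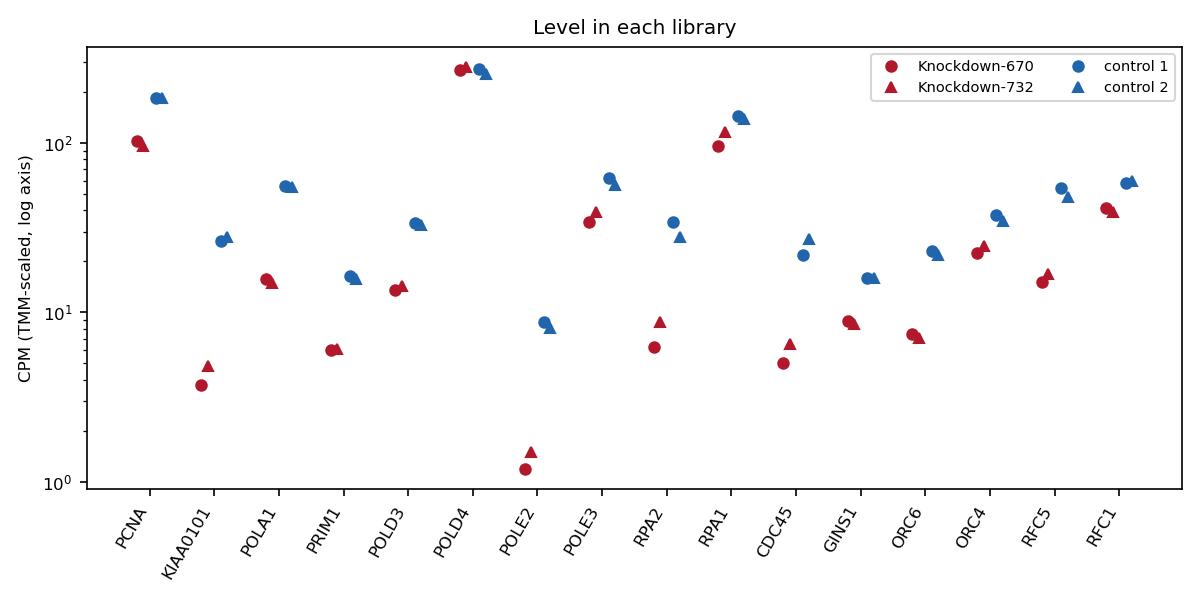
Level in CPM on a log axis for PCNA, KIAA0101 and genes from 7 role groups, with knockdown libraries in red, left, and controls in blue, right. POLD4 is the only gene drawn whose red and blue points overlap, at 255 to 281 CPM.

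All 4 genes of polymerase epsilon fell. POLE2, the subunit that ties the polymerase to the helicase, had 14 and 19 counts in Knockdown-670 and Knockdown-732 and 113 and 107 counts in NC-1 and NC-2, or 1.19 and 1.497 CPM against 8.74 and 8.09 CPM. Its log2 fold change of -2.63 (standard error 0.25, edgeR adjusted p = 1.32e-07) has a wide interval, -3.17 to -2.10, at these counts. POLE, the catalytic subunit, had 61.5 and 59.6 CPM in the knockdown libraries and 110.6 and 107 CPM in the controls (log2 fold change -0.85, 95% interval -1.01 to -0.69). The histone-fold subunits POLE3 and POLE4 were at -0.69 and -0.87. POLE3, which also serves in a chromatin remodeller, had 34.4 and 39.0 CPM in the knockdown libraries and 61.8 and 56.5 CPM in the controls (SE 0.09, edgeR adjusted p = 9.66e-06). Per kilobase, POLE2 stood at 8.54% and 11.1% of POLE in the knockdown libraries and at 34.9% and 33.2% in the controls.

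PCNA, the ring that holds polymerases on DNA, averaged 72.9 CPM per kilobase of transcript in the knockdown libraries and 136 in the controls, where among these genes POLD4 alone was higher. It had 102 and 95.8 CPM in the knockdown libraries and 184 and 184 CPM in the controls, a log2 change of -0.90 (SE 0.07, edgeR adjusted p = 9.65e-09). KIAA0101, a small disordered protein that threads through the PCNA ring, had 3.74 and 4.81 CPM in the knockdown libraries and 26.3 and 28.0 CPM in the controls. Its log2 fold change was -2.66 (95% interval -3.00 to -2.32), the lowest of the 44. Per kilobase of transcript, KIAA0101 stood at 6.47% and 8.90% of PCNA in the knockdown libraries, against 25.3% and 26.9% in the controls. Both genes carry an E2F-type match in a window printed above.

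The clamp loader RFC has a large subunit, RFC1, and 4 small ones, and all 5 genes fell. RFC5 had 15.03 and 16.9 CPM in the knockdown libraries and 53.9 and 48.0 CPM in the controls (log2 fold change -1.67, SE 0.11, edgeR adjusted p = 1.27e-09). RFC3, RFC4 and RFC2 were at -1.65, -1.49 and -1.12. RFC1, the large subunit, had 41.4 and 39.4 CPM in the knockdown libraries and 57.8 and 59.3 CPM in the controls. This was a smaller fall (log2 fold change -0.54, 95% interval -0.72 to -0.35, edgeR adjusted p = 6.10e-05), and its interval does not reach those of the small subunits. Per kilobase, RFC5 stood at 107% and 127% of RFC1 in the knockdown libraries and at 275% and 239% in the controls.

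RPA, the heterotrimer that covers single-stranded DNA, had subunits that fell by very different amounts. RPA2, the subunit that checkpoint kinases phosphorylate, had 6.28 and 8.75 CPM in the knockdown libraries and 34.3 and 28.0 CPM in the controls, a log2 change of -2.04 (SE 0.16, edgeR adjusted p = 1.66e-08). RPA1, the large DNA-binding subunit, had 96.1 and 117 CPM in the knockdown libraries and 145 and 138 CPM in the controls, with a log2 fold change of -0.41 (standard error 0.08, edgeR adjusted p = 0.000665). It was -0.57 without Knockdown-732 and -0.28 without Knockdown-670, and passed in both cases. RPA3, the small subunit, was at -0.87. Per kilobase, RPA2 stood at 22.9% and 26.3% of RPA1 in the knockdown libraries and at 82.8% and 70.9% in the controls. The retrocopies of RPA2 held 39 counts over all libraries, or 3.91% of the count of RPA2 itself, and reads of near-identical copies cannot be told apart here.

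**Figure D4:**
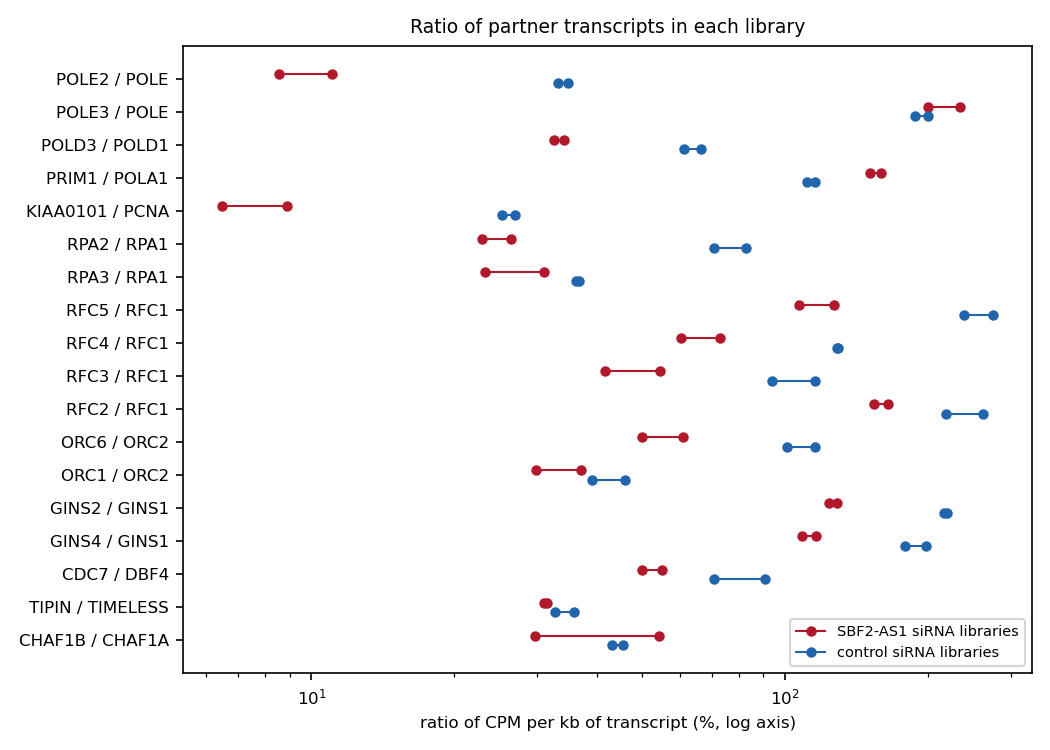
Ratio of the level per kilobase of transcript of 1 gene to that of a partner in the same complex, in percent on a log axis, for knockdown libraries (red, upper) and controls (blue, lower), for all pairs compared but POLD2 and POLD4 to POLD1. RPA2 to RPA1 lies at 22.9% and 26.3% in red and at 82.8% and 70.9% in blue.

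Over 20 such partner ratios, 15 were lower in both knockdown libraries than in both controls, 3 were higher and 2 overlapped. The 3 that were higher were PRIM1 to POLA1, POLD4 to POLD1 and POLE3 to POLE, the last by a margin smaller than the spread between libraries (200.2% and 234% in the knockdown libraries, 199.9% and 188% in the controls). The partners were chosen after fold changes were known, with the less changed gene mostly as the divisor, so these counts are a description. The level of each ratio depends on the transcript lengths used and can differ with coding sequence length. The relative shift between groups does not, since each gene has the same length in every library. No test of a ratio was run, since with 2 libraries a group an exact permutation test cannot go below p = 0.333.

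Genes that finish and join the lagging strand fell by similar amounts. DNA2, a helicase and nuclease that trims long flaps, had 6.37 and 7.56 CPM in the knockdown libraries and 17.2 and 20.3 CPM in the controls (log2 fold change -1.42, SE 0.16, edgeR adjusted p = 8.04e-07). FEN1, the flap endonuclease, was at -1.12. LIG1, the ligase that seals the nicks, had 37.7 and 35.6 CPM in the knockdown libraries and 73.7 and 74.4 CPM in the controls (log2 fold change -1.01, SE 0.09, edgeR adjusted p = 2.05e-08).

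The fork protection and checkpoint genes were all at least 2-fold lower. CLSPN, the mediator that carries the ATR signal to CHK1, had 43 and 49 counts in the knockdown libraries and 154 and 227 in the controls, or 3.65 and 3.86 CPM against 11.9 and 17.2 CPM (log2 fold change -1.95, SE 0.21, edgeR adjusted p = 4.19e-07). The controls differed from each other more than the knockdown libraries did, without overlap between the groups. TIMELESS, the partner of TIPIN in the fork protection complex, had 59.5 and 61.1 CPM in the knockdown libraries and 168 and 151 CPM in the controls (log2 fold change -1.40, SE 0.08, edgeR adjusted p = 8.86e-11). TIPIN itself was at -1.54, and WDHD1, which links polymerase alpha to the helicase, at -1.89. Per kilobase, TIPIN stood at 31.4% and 31.0% of TIMELESS in the knockdown libraries and at 35.9% and 32.7% in the controls, so this ratio moved little.

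CHAF1A and CHAF1B, the subunits of the CAF-1 complex that places histones on new DNA at PCNA, were at -1.35 (SE 0.14, edgeR adjusted p = 8.55e-07) and -1.496 (SE 0.16, edgeR adjusted p = 4.52e-07). The knockdown libraries disagreed in their order here. CHAF1A had 17.3 CPM in Knockdown-670 and 12.4 CPM in Knockdown-732, against 35.3 and 40.1 CPM in the controls. CHAF1B had 6.88 and 8.98 CPM in the same knockdown libraries and 20.4 and 24.5 CPM in the controls.

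Genes outside these complexes but on the same pathway were counted from lists of named genes. In the MCM helicase and its loaders all 10 genes fell (median log2 fold change -1.31), among them the ring subunits MCM4 at -1.46 and MCM7 at -1.22. All 5 further firing factors fell (median -0.81), with MCMBP, a binder of MCM subunits, at -0.68 and MTBP, a partner of the firing factor TICRR, at -1.56. Of 5 genes of alternative clamp loaders 4 fell (median -0.64), with DSCC1 of the CTF18 loader at -1.86 and ATAD5, which unloads PCNA, at -1.47, while RAD17, which loads the checkpoint clamp, did not pass (-0.12).

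Other DNA polymerases and helpers were mixed. Of 10 translesion and bypass genes 4 fell and 6 did not pass (median -0.26), with POLQ, the polymerase of end joining, at -1.14 and CCDC111, the older symbol of PRIMPOL, at -1.38. Among the repair polymerases and ligases 2 of 5 tested genes fell, LIG3 at -0.77 and POLB at -0.47. Of 5 topoisomerases 3 fell, among them TOP2A at -1.65, and TOP1, the enzyme that relaxes DNA ahead of forks and transcription, rose by 0.59. The 8 mitochondrial replication genes had a median of -0.01, with 3 lower, 2 higher and 3 that did not pass: the exonuclease MGME1 was at -0.76, the mitochondrial polymerase POLG at 0.35 and the mitochondrial RNA polymerase POLRMT at 0.35. These counts are to be read against 22.8% lower and 23.5% higher over all genes tested.

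**Figure D5:**
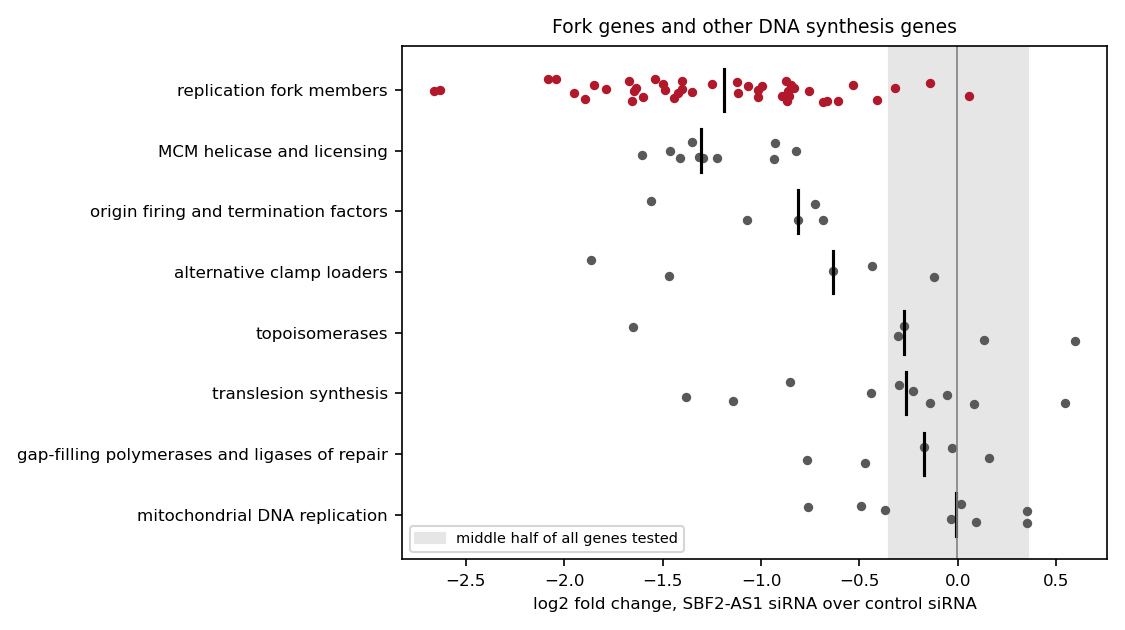
Each dot is the log2 fold change (x axis, SBF2-AS1 siRNA over control siRNA) of 1 gene, in rows for the 44 fork genes (red) and 7 lists of other DNA synthesis genes (grey). Black bars are medians, from -1.31 for the MCM list to -0.01 for mitochondrial replication, and the shaded band is the middle 50% of all genes tested, -0.35 to 0.36.

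In the same libraries 10 of 10 mitotic genes fell (median -1.63; TPX2, a spindle factor, at -1.77 and CENPF, a kinetochore protein, at -1.64). All 10 listed interferon-response genes rose (median 3.87; the ubiquitin-like ISG15 at 4.44 and the antiviral GTPase MX1 at 4.50), and their sum was 1833 and 1836 CPM in the knockdown libraries and 222 and 214 CPM in the controls. The part of either in the fall of the fork genes was not tested.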

How the data were processed

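The deposited file is a table of raw read counts, by gene symbol and library, with 0 columns of no sample and 0 entries naming no gene. Per the labels' protocols, RNA was extracted with Trizol and sequenced on the Ion Proton; per the submitters' processing notes the genome build was GRCh37. Which aligner, counter, annotation and strand setting were used was not given in the sources used here. Of the 44 genes, 11 have exons that overlap an opposite-strand gene of the table, by at most 6.70% of their exon bases. Opposite-strand genes without a row overlap more, AC009630.2 with 21.2% of the exon bases of GINS4 and AC009118.2 with 10.9% of those of GINS3. On the same strand, TIPIN shares 21.0% of its exon bases with RPL9P25, a processed pseudogene with 103 counts over all libraries. Smaller same-strand overlaps with genes of the table were those of FEN1 with FADS2 (1.98%), CHAF1B with MORC3 (1.74%) and PRIM1 with NACA (1.35%). Same-strand genes without a row overlap more, the largest being AP000944.2 with POLA2 (35.1%) and AC087632.1 with KIAA0101 (28.8%). Whether reads of genes without a row were counted for the members was not tested. The members and lists were chosen with earlier results of these data known; 1 marker list is not reported here.

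The comparison used R 4.3.3 and edgeR 4.0.16 (filterByExpr, TMM, robust glmQLFit and glmQLFTest, Benjamini-Hochberg over all genes tested, threshold 0.05); the scripts were tested on simulated data. Chi-square values per gene were 3.42 between the knockdown libraries and 3.72 between the controls, so neither was a copy. SE is the log2 fold change over the root of F; intervals are 95%. The coefficient of biological variation was 6.64%. Lengths are those of the GENCODE v29 transcript with the longest coding sequence (GRCh38, joined by symbol or RefSeq synonym, 28572 and 1281 of 40205 symbols). DESeq2 1.42.0 and limma 3.58.1 were alternatives. Values per library were given for PCNA, KIAA0101 and the genes of lowest and highest fold change in each role group, and for further members chosen after their values were seen; list genes were those of smallest p or against the trend.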

Additional observations from a re-analysis of the deposited data

How the results depend on the processing

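No paired analysis was possible because the labels give the groups no shared replicate numbers. Each library was left out in turn, and normalization, filter and tool were varied, 12 settings in all. The number of fork genes lower was 41 to 43 in place of 42, and 0 were higher in each setting. The median log2 fold change was -1.25 with library size only and -1.13 with adjustment for transcript GC and length; without 1 library it ran from -1.25 to -1.18, and the number lower from 42 to 43. SBF2-AS1 ran from -2.14 to -1.71 without 1 library and was not tested with a minimum of 5 CPM. Over 44 genes and 12 settings (528 values), 522 kept their direction and their side of the threshold. Sizes moved more: adjusted for transcript GC and length, POLE fell further, to -1.20, and PRIM1 and RFC3 less, to -1.06 and -1.31. Some orders turned under that adjustment. LIG1 (-1.30) then lay below DNA2 (-1.11), POLA2 (-1.95) below POLA1 (-1.76), TOPBP1 (-0.603) below DBF4 (-0.589) and POLE2 (-2.333) just below KIAA0101 (-2.325). POLD4 turned negative with library size only (-0.0074) and without NC-2 (-0.0014), its range without 1 library being -0.0014 to 0.10; POLD2 passed in 3 settings, and POLD1 was lost against a fold change of 1.2. With library size only the median of all genes was -0.07. The cause was not tested. Against a fold change of 1.2, 2229 genes of all tested were lower and 2451 higher, in place of 3678 and 3785. Counts of 14 and 19 limit POLE2.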
